A study of Mus musculus with 6 samples.

Results

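The TRIM (tripartite motif) genes were followed in spleen RNA of NOD mice given the peptide MOTS-c. Members were the probes whose symbol in the authors' deposited table is Trim with a number, plus the dim probes of further such genes found in the scanner output. This gave 113 probes of 67 genes, 79 of them in the authors' table and 34 only in the scanner output. Of these 67 genes, 51 had a probe that exceeded background clearly on every array of the vehicle group, the MOTS-c group or both. These 51 were tested, among 22508 tested genes in all. The mouse reference lists 69 TRIM genes, and 2 of them, Trim30c and Trim43a, had no probe named here.

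Vehicle mice were given a scrambled version of the MOTS-c peptide, and treated mice MOTS-c at 0.5 mg/kg/day by intraperitoneal injection, every morning. All were females of the NOD strain, in which autoimmune diabetes arises without being induced, bought at 6 weeks of age, with spleens collected at 18 weeks after 16 to 18 h of fasting. MOTS-c is a peptide whose reading frame lies in mitochondrial DNA. Each group had 3 one-colour arrays, called vehicle 1 to 3 and MOTS-c 1 to 3 below. The labels do not say whether each sample is 1 mouse.

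A TRIM protein carries a RING finger, 1 or more B-boxes and a coiled coil in this order, followed by a C-terminal part that differs between members and binds the target. The RING makes most of them ubiquitin ligases. Some members are known from red cell development: TRIM10 takes part in terminal erythroid differentiation, and TRIM58 is a ligase of late erythroblasts that removes the motor protein dynein before the nucleus is expelled. Others act in antiviral defence and are themselves induced by interferon, among them the mouse Trim12, Trim30 and Trim34 genes, relatives of the primate restriction factor TRIM5 that lie in a single cluster. In the spleen of a mouse, which makes red cells as well as housing lymphocytes, both kinds can be read in the same RNA. Spleen RNA pools all cells, so fewer cells of a type and less RNA per cell cannot be told apart.

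Interferon acts on many genes through the interferon-stimulated response element (ISRE), which IRF proteins bind. A search of RefSeq promoters on GRCm38.p6, each 300 bases long and running from 250 before the start of transcription to 50 after it, found promoters for 53 of the TRIM genes, 67 promoters in all. The ISRE core, GAAA repeated after any 2 bases, on either strand and allowing overlapping matches, lay in 10 of these 67 (14.9%) and in 3.44% of all 32851 promoters. Those 10 promoters belong to 9 genes, and they are shown because the interferon-linked members below make up 5 of the 9. Each line gives 30 bases in the direction of transcription, and capitals mark the match.
Trim12a, chr7:104315466-104315495, minus strand: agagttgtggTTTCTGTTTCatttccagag
Trim12c, chr7:104353359-104353388, minus strand: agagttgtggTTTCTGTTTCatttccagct
Trim2, chr3:84212791-84212820, minus strand: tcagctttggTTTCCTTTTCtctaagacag
Trim21, chr7:102565450-102565479, minus strand: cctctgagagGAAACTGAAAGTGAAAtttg
Trim26, chr17:36836976-36837005, plus strand: ccgcttccgaTTTCACTTTCCTTTTCtcgg
Trim30a, chr7:104446104-104446133, minus strand: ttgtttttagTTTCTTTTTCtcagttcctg
Trim30a, chr7:104465210-104465239, minus strand: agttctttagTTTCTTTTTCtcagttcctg
Trim30d, chr7:104507871-104507900, minus strand: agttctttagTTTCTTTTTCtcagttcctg
Trim34a, chr7:104244457-104244486, plus strand: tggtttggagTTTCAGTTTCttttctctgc
Trim5, chr7:104288136-104288165, minus strand: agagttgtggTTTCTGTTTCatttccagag
The windows of Trim12a and Trim5 were identical over 30 of 30 bases, as were those of Trim30d and the upstream start of Trim30a. Trim12a and Trim12c matched at 28 of 30. These promoters are copies of each other, so their matches are not separate events. No ISRE core was present in the promoter windows of Trim30b and Trim34b.

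The upstream 250 bases of both erythroid members are printed because these genes were lower together, and GATA1 and KLF1, which bind AGATAA-like and CACC sites, drive red cell genes. Capitals mark the AGATAA match, which here lies on the other strand.
Trim10, chr17:36869324-36869573, plus strand: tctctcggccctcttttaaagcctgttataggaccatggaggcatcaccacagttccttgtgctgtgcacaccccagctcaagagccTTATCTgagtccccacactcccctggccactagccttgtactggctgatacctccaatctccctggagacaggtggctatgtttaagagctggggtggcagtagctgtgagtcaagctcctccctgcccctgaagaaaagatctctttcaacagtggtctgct
Trim58, chr11:58640215-58640464, plus strand: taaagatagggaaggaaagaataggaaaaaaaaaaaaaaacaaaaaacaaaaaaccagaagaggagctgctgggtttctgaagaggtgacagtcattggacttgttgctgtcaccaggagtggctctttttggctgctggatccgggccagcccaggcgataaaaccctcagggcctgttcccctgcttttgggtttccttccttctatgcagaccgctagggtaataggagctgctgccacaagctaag
In Trim10 that match starts 163 bases before the transcription start. Trim58 has no exact AGATAA in its window, but variants of this core, such as the agatag near the start of its printed sequence, were not searched. Neither promoter holds the CACC motif CCNCNCCC. Over all promoters, 11.2% hold AGATAA and 49.5% the CACC motif, on either strand, against 5.97% and 47.8% of the TRIM promoters.

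As for the arrays as a whole, 61.8% to 64% of spots were well above background, and 0 spots were saturated. By limma, 2 of 22508 genes (0.00889%) passed an adjusted p of 0.05. Array vehicle 1 stood apart with the lowest T cell and B cell transcripts, its mean lying 1.48 and 1.37 log2 units below the mean of the 6 arrays, written as a deviation of -1.48 and -1.37. Array vehicle 3 stood apart with pancreatic enzyme transcripts, at a deviation of 4.94 against 1.26 and -1.65 on the other vehicle arrays and -2.9 to 0.264 with MOTS-c. Vehicle 1 and 2 were on one slide, and vehicle 3 shared the other with all 3 MOTS-c arrays. Of the spleen's own markers, erythroid, T cell, B cell, red pulp macrophage and stromal lists were tested in full. Without vehicle 3, the erythroid pair described below had a mean difference of -1.24 and the interferon-linked members a median of 0.643.

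Levels below are log2 processed signals scaled to the 75th percentile of their array, where the level is 0, and differences are MOTS-c minus vehicle on this log2 scale. Across the 51 tested TRIM genes, 18 had a lower and 33 a higher mean with MOTS-c, and the median difference was 0.193, against 0.0154 over all tested genes. By limma, 0 passed an adjusted p of 0.05, and 19 TRIM genes had an unadjusted p under 0.05 (12 without MOTS-c 1, and 7 when the slide was a block). At this level 8 TRIM genes (15.7%) were lower, where 14.1% of all tested genes were, and 11 (21.6%) were higher, where 10.7% of all tested genes were. Correcting background by normexp instead gave 9 lower and 8 higher.

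All 3 MOTS-c values lay below all vehicle values in 11 TRIM genes (21.6%), against 19.1% of all genes. They lay above in 15 (29.4%), against 15.8% of all genes. Quantile normalization gave 9 lower and 19 higher, and the authors' normalized values 7 and 18. At the looser adjusted p of 0.1, 5 members stood out: Trim38, Trim23, Trim10 and Trim59 lower and Trim43b higher, the smallest adjusted p being 0.0861. Over all tested genes 4.51% were lower and 1.08% higher at this level. The number of members was 9 and 8 under normexp with the 75th percentile and with quantile normalization, 3 under quantile normalization alone or in the authors' values, and 4 under a filter on all 6 arrays. It was 0 without a filter or with the replicate block, and 0 without vehicle 1, without any one of the 3 MOTS-c arrays or when the slide was a block, 13 without vehicle 2 and 6 without vehicle 3. Of the 51, 4 passed the filter with fewer than all 6 arrays above background, so a difference was partly built in for them: Trim15, Trim38, Trim40 and Trim43b. Among the other 47, an unadjusted p under 0.05 was found for 6 lower and 9 higher genes, where 14.7% and 10.4% of all genes under that filter were, and the median difference was again 0.193.

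**Figure D1:**
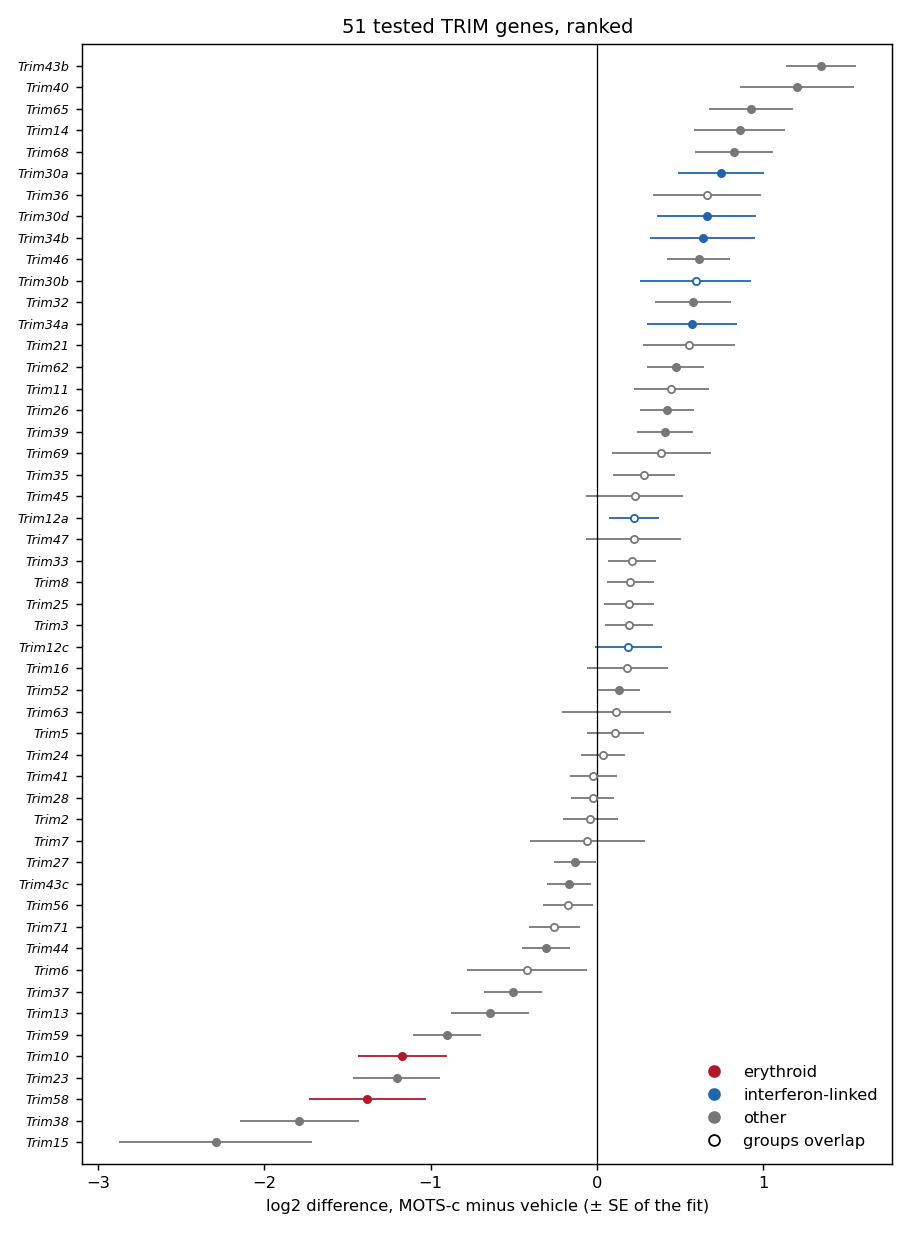
Log2 difference (MOTS-c minus vehicle, horizontal axis) of each of the 51 tested TRIM genes, ranked, with the standard error of the limma fit. Open points mark genes whose 2 groups overlap. Trim10 and Trim58 (red) sit among the lowest values, and the interferon-linked genes (blue) lie between 0.19 and 0.75.

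Both erythroid TRIM genes were lower with MOTS-c, by log2 differences of -1.17 for Trim10 and -1.38 for Trim58, or 2.25-fold and 2.60-fold. Trim10 was read by 1 probe at chr17:37014159-37014218 (mm9). Its level was 4.45, 3.54 and 4.28 on vehicle 1, 2 and 3, and 3.19, 2.86 and 2.71 on MOTS-c 1, 2 and 3. Every MOTS-c array lay below every vehicle array, and vehicle 2 was the lowest of its group. The means were 4.09 ± 0.48 and 2.92 ± 0.25 (SD, n = 3 each), the standard error of the difference was 0.27, and limma's adjusted p was 0.089.

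Trim58, read by 1 probe at chr11:58465809-58465868 (mm9), gave -0.75, -1.84 and -1.38 on the vehicle arrays and -2.12, -3.11 and -2.89 on the MOTS-c arrays. Here too the groups did not overlap, although the gap between vehicle 2 and MOTS-c 1 was small. The group means were -1.33 ± 0.55 and -2.71 ± 0.52 (SD, n = 3 each), with a standard error of 0.35 and an adjusted p of 0.101. In the authors' deposited table, the signed fold is -1.97 for Trim10 and -2.65 for Trim58, with p-values of 0.0306 and 0.0319. The adjusted p there is 0.37 for both.

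The mean difference of both genes was -1.28, and it lay between -1.54 and -1.04 when each array was left out in turn. Averaged over Trim10 and Trim58, the deviation from the mean of all arrays was 1.11, 0.104 and 0.704 on the vehicle arrays and -0.211, -0.869 and -0.834 with MOTS-c. Vehicle 2 was the vehicle array nearest the MOTS-c values. The erythroid marker list, which holds neither gene, had the same order among the vehicle arrays: 0.972, 0.144 and 0.671 on vehicle and -0.616, -0.435 and -0.736 with MOTS-c. All 14 of its genes, against 19.1% of all tested genes, were lower without overlap, with a median difference of -1.25. Among them Gata1 and Tal1, transcription factors of the red cell line, differed by -1.09 and -1.04, and Klf1 by -0.92. The dividing cell list was lower as well, in 10 of 10 genes with a median of -1.15. What part these lists have in the Trim10 and Trim58 values was not tested.

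Each of the 7 tested interferon-linked genes had a higher mean with MOTS-c, with a median difference of 0.593, though Trim12a turned to -0.0273 under normexp with the 75th percentile. Among them 4 were higher without overlap, where 15.8% of all tested genes were. By limma, 1 of the 7, Trim30a, had an unadjusted p under 0.05, where 10.7% of all tested genes were higher at that level. None of the 7 passed the adjusted threshold, and their adjusted p lay between 0.152 and 0.563. Without vehicle 1 the median was 0.267, and without vehicle 2 it was 0.86. All 7 differences stayed above 0 without vehicle 1.

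Trim30a, a negative regulator of Toll-like receptor signalling, was at -0.50, 0.45 and 0.16 on vehicle 1 to 3 and at 0.91, 0.86 and 0.57 with MOTS-c. The groups did not overlap, and vehicle 1 was the lowest array by a wide margin. Its difference was 0.75 (standard error 0.26, adjusted p 0.152), and 0.48 without vehicle 1. All 3 Trim30a probes were higher, by 0.71 to 0.75. The gene's brightest probe lies at chr7:111560170-111560747 (mm9).

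Trim30d gave -1.85, -0.68 and -1.04 with vehicle and -0.63, -0.38 and -0.59 with MOTS-c, a difference of 0.66 (standard error 0.30) without overlap. Trim30b gave -1.65, -0.24 and -0.88 against -0.24, -0.40 and -0.35, a difference of 0.59 (standard error 0.33). For Trim30b the groups overlapped, since vehicle 2 was level with the highest MOTS-c array. Both differences shrank without vehicle 1, to 0.33 for Trim30d and 0.23 for Trim30b.

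Trim34a was at -0.42, 0.60 and 0.31 on the vehicle arrays and at 0.66, 0.93 and 0.61 with MOTS-c. Its difference was 0.57 (standard error 0.27), and its 4 probes ranged from 0.57 to 0.98, all higher. The neighbouring copy Trim34b was at -4.96, -3.78 and -3.95 with vehicle and at -3.70, -3.40 and -3.69 with MOTS-c, a difference of 0.63 (standard error 0.31). Neither gene's groups overlapped, yet vehicle 2 came close to the lowest MOTS-c array in both. Without vehicle 1 the differences were 0.28 and 0.27. Trim34b was dim, and its difference fell as low as 0.152 over the processing alternatives.

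The Trim12 genes, the nearest mouse relatives of primate TRIM5 along with Trim5 itself, differed least. Trim12a was at -4.70, -4.35 and -4.57 against -4.40, -4.30 and -4.27, and Trim12c at -0.84, -0.43 and -1.15 against -0.68, -0.62 and -0.56. Their differences were 0.22 (standard error 0.15) and 0.19 (standard error 0.20), and both overlapped. A second, dimmer Trim12c probe differed by 0.74. Over the 79 TRIM probes with a sequence in the files, the best match between different genes was 31 of 60 bases, for Trim25 and Trim6. Whether a probe also catches transcripts of a close copy was not tested.

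**Figure D2:**
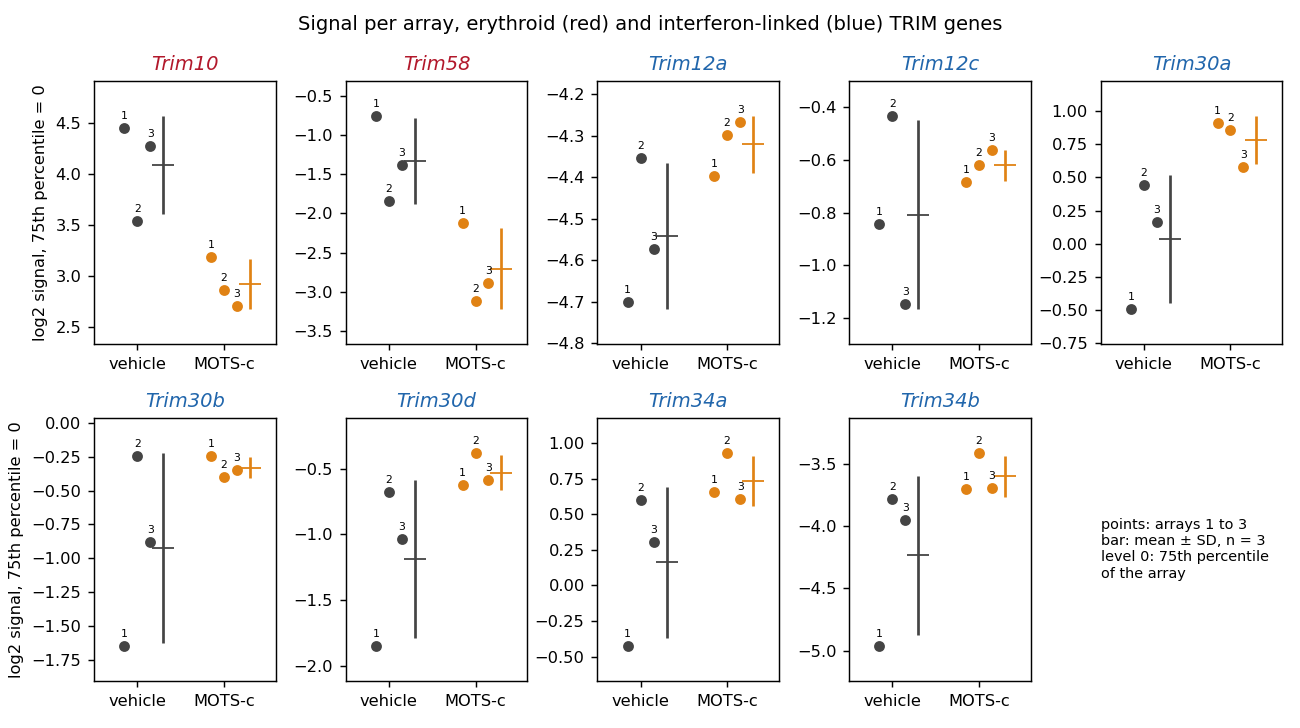
Log2 signal relative to the array's 75th percentile (vertical axis, scaled per gene) for the 2 erythroid (red titles) and 7 interferon-linked (blue titles) TRIM genes on each array, with bars for the mean ± SD of 3 arrays. Trim10 and Trim58 separate downward with MOTS-c, and vehicle 1 is the lowest point of 6 of the 7 interferon-linked genes.

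Set side by side, the erythroid pair and the interferon-linked genes had differences of opposite sign, which no test compared, and the arrays that set them were not the same. Averaged over the 7 interferon-linked genes, the deviations were -0.748, 0.179 and -0.204 on vehicle 1, 2 and 3 and 0.231, 0.34 and 0.203 on the MOTS-c arrays. The MOTS-c arrays were close to each other, and vehicle 2 was almost level with them. The interferon-stimulated list fixed as comparison, 30 genes such as Irf7 and Isg15, had a like profile: -0.772, 0.407 and -0.211 with vehicle and 0.296, 0.38 and -0.0996 with MOTS-c. There vehicle 2 was the highest array, so the list's groups overlapped.

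Of those 30 genes, 24 had a higher and 6 a lower mean, with a median of 0.467. By limma, 4 were higher at an unadjusted p under 0.05, among them Oas2 by 1.59, Oas1a by 1.28 and Oasl2 by 1.27. Another 3 were lower, with differences of -1.45 for Cmpk2, -1.32 for Rsad2 and -0.56 for Eif2ak2. Over all tested genes 10.7% were higher and 14.1% lower at that level. Without vehicle 1 the median was 0.109, with 19 genes higher and 11 lower. T cell and B cell markers, whose lowest array was also vehicle 1, had a higher mean in 12 of 12 and in 10 of 10 genes. Their medians were 0.932 and 0.718, but 0.411 and 0.28 without vehicle 1. Plasmacytoid dendritic cell markers, of the cells that make the most type I interferon, were higher in 5 of 6 with a median of 0.516, or 0.24 without vehicle 1. The marker that went the other way was Siglech, at -0.14, and Bst2 is also in the interferon-stimulated list. By limma, 0 of the 6 had an unadjusted p under 0.05. The part of these cell types in the interferon-linked values was not tested.

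**Figure D3:**
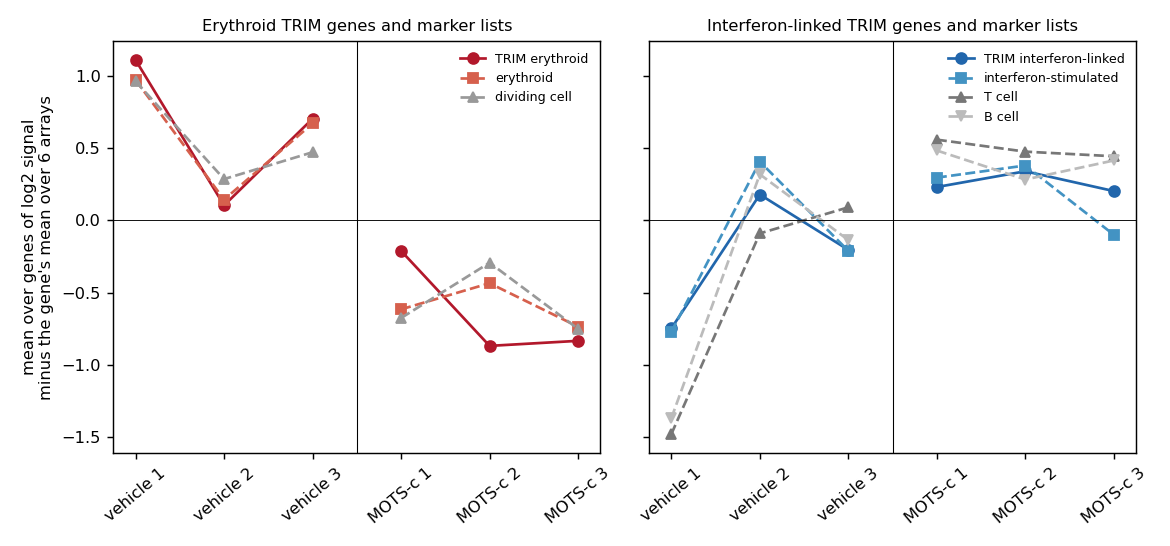
Mean log2 deviation from each gene's average over 6 arrays (vertical axis), per array, for the erythroid TRIM genes with erythroid and dividing cell markers (left) and for the interferon-linked TRIM genes with interferon-stimulated, T cell and B cell genes (right). On the left all vehicle arrays lie above all MOTS-c arrays, and on the right vehicle 1 lies lowest in every list.

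Besides the erythroid pair, the members lowest with MOTS-c were Trim15, Trim38, Trim23 and Trim59. Trim23, a TRIM protein that also carries a GTP-binding ADP-ribosylation factor domain, was at 1.34, 0.47 and 0.42 with vehicle and at -0.33, -0.51 and -0.54 with MOTS-c. The groups did not overlap, and vehicle 1 was the highest array. The difference was -1.21 (standard error 0.26, adjusted p 0.0867), and a second probe gave -1.06. Without vehicle 1 it was -0.91.

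Trim59, a membrane-anchored member often high in dividing cells, was at 4.99, 4.36 and 4.90 against 3.89, 4.00 and 3.66. Its difference of -0.90 (standard error 0.21, adjusted p 0.089) came with no overlap, in arrays where the dividing cell list was also lower. Trim38, a ligase that tunes Toll-like receptor and cytokine signalling, was at -3.37, -4.39 and -3.98 against -5.58, -5.20 and -6.32, a difference of -1.79 (standard error 0.36, adjusted p 0.0861). It was dim: 2 of 3 MOTS-c arrays were well above background, and normexp, which adds an offset of 50 to all signals, gave -0.65.

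Trim15, which is found at focal adhesions, was at -3.80, -5.02 and -4.20 with vehicle and at -7.85, -5.58 and -6.47 with MOTS-c. It was above background on all 3 vehicle arrays and not well above background on any MOTS-c array. Its measured means were -4.34 and -6.63 (limma adjusted p 0.101). With MOTS-c values raised to the lowest signal still above background, it was 2.39-fold higher in vehicle on this scale. It passed the filter only through the vehicle group, so a difference was partly built in. Normexp gave a difference of -0.557. Smaller lower means without overlap were found for Trim13, an endoplasmic reticulum ligase (-0.64), and Trim37, which limits centriole assembly (-0.51). Both had an unadjusted p under 0.05 by limma. For Trim13, vehicle 3 was at -1.17, near the highest MOTS-c array at -1.21, and a block for the slide gave a difference of -0.121.

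On the higher side Trim65, Trim14 and Trim68 had the largest differences among members above background on all arrays. Trim65, which modifies the RNA sensor MDA5, was at -1.82, -1.07 and -0.91 against -0.52, -0.29 and -0.21, a difference of 0.93 (standard error 0.25, adjusted p 0.113). Trim14, an adaptor at the mitochondrial antiviral protein MAVS that lacks a RING, was at -0.78, -0.03 and 0.11 against 0.92, 0.36 and 0.60, a difference of 0.86 (standard error 0.27, adjusted p 0.137). A second Trim14 probe gave only 0.23. Trim68 was at -1.99, -1.35 and -1.39 against -0.54, -1.08 and -0.63, a difference of 0.82 (standard error 0.24, adjusted p 0.121).

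In all of these the groups were separate and vehicle 1 was the lowest array. Leaving vehicle 1 out gave 0.65, 0.58 and 0.62, and a block for the slide gave 0.57, 0.51 and 0.64.

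Trim43b, one of a set of genes known from the early embryo, was at -5.59, -5.32 and -5.79 with vehicle and at -4.48, -4.31 and -3.88 with MOTS-c. Its measured difference was 1.34 (adjusted p 0.0861), but the probe was above background on 1 of 3 vehicle arrays and passed the filter only through the MOTS-c group. A difference was thus partly built in, and normexp gave 0.27. Trim43c, its relative, differed by -0.17. Trim40, a gut-expressed member, was at -7.07, -5.61 and -6.41 against -5.19, -5.13 and -5.17. It was above background on 0 vehicle and 3 MOTS-c arrays, with measured means of -6.37 and -5.16 (limma adjusted p 0.12). With vehicle values raised to the lowest signal still above background, it was 1.3-fold higher with MOTS-c on this scale. Trim40 passed the filter only through the MOTS-c group, so a difference was partly built in. Under normexp its difference was 0.06.

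By role, the innate sensing and antiviral members went both ways, with 6 of 10 tested higher and 4 lower and a median of 0.306. By limma, 4 higher and 2 lower had an unadjusted p under 0.05, where 10.7% and 14.1% of all tested genes did. Under the filter on all 6 arrays, which leaves out Trim38, 4 of 9 were higher and 1 lower at this level. The higher ones beside Trim65 and Trim14 were Trim32, which acts on STING (0.58, or 0.36 without vehicle 1), and Trim26, which acts on IRF3 (0.42). Trim21, the cytosolic antibody receptor, differed by 0.56 with an overlap, or by 0.27 without vehicle 1, and Trim25, the ligase of RIG-I, by 0.19. Trim56 and Trim27 were near 0, at -0.18 and -0.13, and turned to 0.0402 and 0.022 under quantile normalization. In the authors' deposited table a second Trim56 probe has a fold of -1.15 and a p-value of 0.000418, but an adjusted p of 0.37. That probe differed by -0.31 on the scale used here.

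The transcriptional cofactors Trim24, Trim28 and Trim33, which carry a PHD finger and a bromodomain, differed by 0.04, -0.03 and 0.21 at their brightest probes. Trim28, the corepressor of KRAB zinc finger proteins, was at 4.19, 4.13 and 4.02 against 4.03, 4.14 and 4.10. Its standard error was 0.13 and its sign changed with the scaling, as listed with the processing alternatives. The fourth cofactor, Trim66, was above background on no array.

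Among members tied to the cytoskeleton and cell division, Trim59 and Trim37 were lower and Trim36, Trim46 and Trim69 higher. Trim46, which bundles microtubules in axons, differed by 0.61 (limma unadjusted p 0.014) without overlap. It was dim, and its difference fell as low as 0.12 over the processing alternatives. Trim36 differed by 0.66 and Trim69 by 0.39, both with overlap. Without vehicle 1 Trim36 differed by 0.32. Members with an NHL propeller showed small differences apart from Trim32: Trim3 0.19, Trim2 -0.04 and Trim71, a stem cell RNA-binding protein, -0.26. Muscle members were hardly measurable. Trim63, a ligase of muscle wasting, differed by 0.12 with a standard error of 0.33. Trim54 was above background on 1 array, and Trim55 and Trim72 on none. Of 8 skeletal muscle markers in the same RNA, Ckm, Mb and Myh1 were above background on 0 arrays and Myh2 and Myh4 on 1 array each. The other 3 had a lower mean with MOTS-c: Acta1 by -0.45 and Tnnt3 by -0.19 with overlap, and Mylpf by -1.24 without (adjusted p 0.0861). Their part in the Trim63 value was not tested.

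Genomic order, taken from RefSeq on GRCm38.p6, gives another view. On chromosome 17, Trim26, Trim15, Trim10, Trim40 and Trim31 are direct neighbours in the major histocompatibility region, with Trim39 9 genes away. Their differences were 0.42, -2.29, -1.17 and 1.20, with Trim31 above background on no array, and 0.41 for Trim39. Trim15 and Trim40 were each above background in 1 group alone, so the filter itself favoured the sign they have. Their size depends on the background correction. Trim39, at 1.82, 2.04 and 2.27 against 2.30, 2.48 and 2.57, and Trim26, at 2.24, 2.41 and 2.64 against 2.92, 2.69 and 2.94, were both higher without overlap.

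On chromosome 7 the cluster from Trim6 to Trim30d holds 9 tested genes. Trim6, at its edge, differed by -0.42 with a standard error of 0.36, or by 0.22 when the slide was a block. Trim5 differed by 0.11 (standard error 0.17), and the others were the interferon-linked genes above. Trim5 carries the same ISRE window as Trim12a, printed above, and both were among the smallest differences of the cluster. Of the genes with an ISRE core outside the cluster, Trim21 differed by 0.56 (0.27 without vehicle 1), Trim26 by 0.42 and Trim2 by -0.04. Trim30b and Trim34b, without the core in their windows, differed by 0.59 and 0.63.

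**Figure D4:**
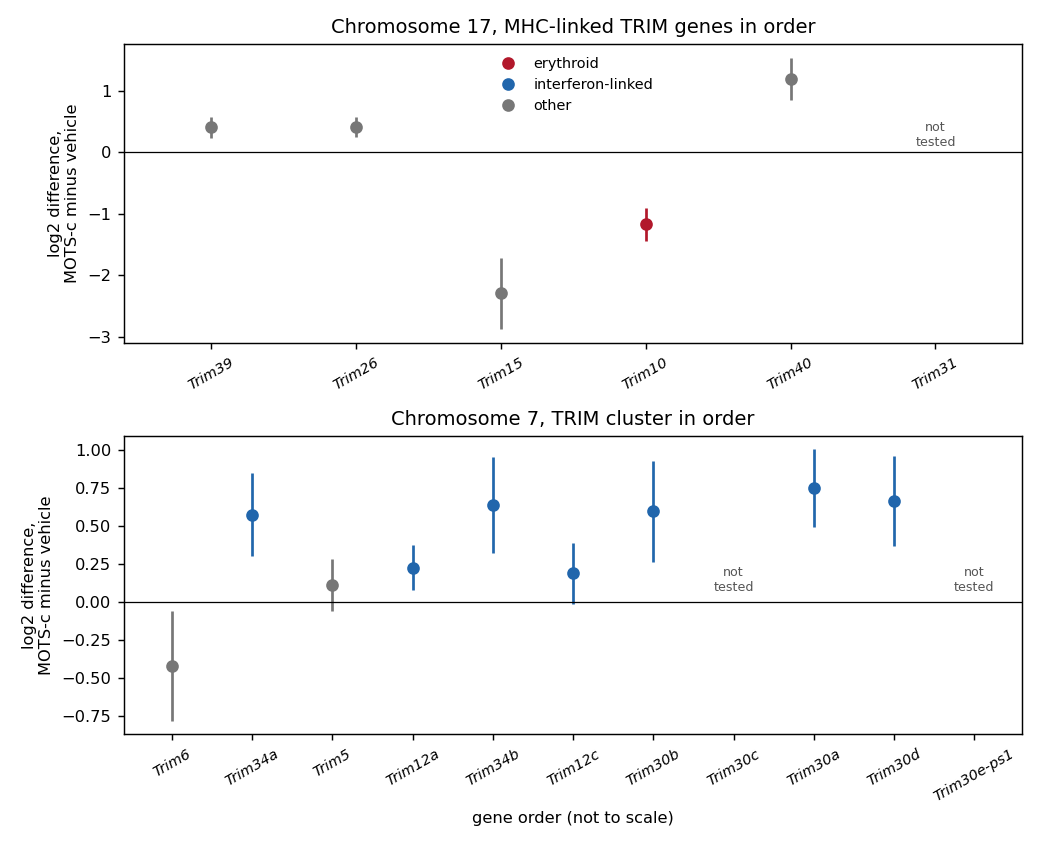
Log2 difference (MOTS-c minus vehicle, vertical axis) with the standard error of the limma fit for TRIM genes in their genomic order, spaced evenly, in the chromosome 17 region (top) and the chromosome 7 cluster (bottom). Trim15 and Trim40 passed the filter through 1 group only, Trim10 lies at -1.17, and all interferon-linked genes of chromosome 7 lie above 0, though Trim12a turned to -0.0273 under normexp with the 75th percentile.

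Several members were read by more than 1 probe, and the probes did not always go together. Of 23 genes with several tested probes, 7 had probes on both sides of 0. For Trim24 the brightest probe differed by 0.04 and the others by -0.55 and -0.70, all on chromosome 6. For Trim25 the values were 0.19, -0.35 and 0.94, and for Trim44 -0.31 and 0.21. The Trim25 probe at -0.35 is largely a GT repeat, and whether it reads Trim25 alone was not tested. Trim27 had 2 probes near 0 and a dimmer one at -1.27. By contrast, both probes of Trim23 and all probes of Trim30a, Trim30d, Trim34a and Trim39 went the same way. Where in an exon or untranslated region these probes lie was not determined. Trim12a, Trim32, Trim40, Trim43c, Trim52 and Trim63 each had another probe that was above background on no array, so their values rest on 1 probe.

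**Figure D5:**
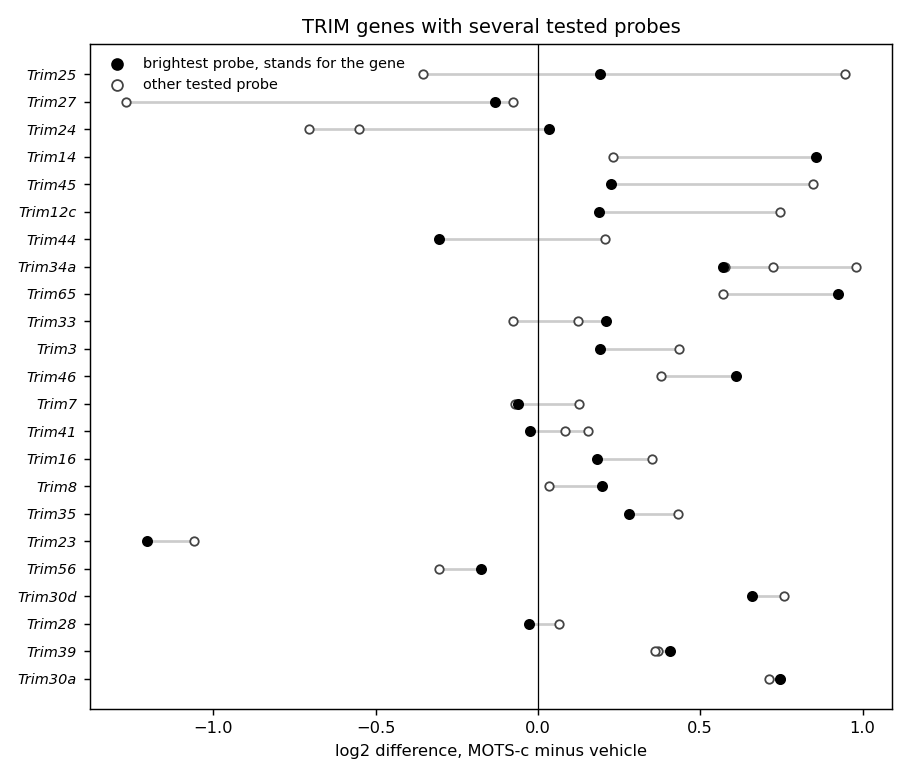
Log2 difference (MOTS-c minus vehicle, horizontal axis) of each tested probe for the 23 TRIM genes with several, ordered by the spread between probes. The filled point is the brightest probe, which stands for the gene. Trim25, Trim27 and Trim24 show the widest spread, and Trim30a and Trim39 the narrowest. The lowest Trim25 point comes from a probe that is largely a GT repeat.

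The remaining tested members differed by little or within their spread. Trim62 (0.47, unadjusted p 0.028), which acts on the fungal sensing adaptor CARD9, was higher without overlap, and Trim11 (0.45) and Trim35 (0.28, or 0.13 without vehicle 1) were higher with overlap. Trim8, Trim16, Trim41, Trim45, Trim47, Trim52 and Trim7 lay between -0.06 and 0.23. Of the 16 members that were not tested, 12 were above background on no array: Trim17, Trim30e-ps1, Trim31, Trim42, Trim55, Trim60, Trim61, Trim66, Trim67, Trim72, Trim75 and Trim80. Another 4 were above background on some: Trim29, Trim50 and Trim54 on 1 array each, and Trim9 on 1 vehicle and 2 MOTS-c arrays. Genes with a B-box and a coiled coil but no Trim name gave 0 of 5 at an unadjusted p under 0.05 by limma. Pml differed by -0.37, and Mid1, Mid2, Mefv and Bspry by 0.33, 0.25, 0.21 and 0.21. The groups did not overlap for Pml, lower with MOTS-c, and Mid2, higher. At that level 1 of the 5 was lower under normexp with the 75th percentile or a filter on all 6 arrays, 1 higher without vehicle 2, and 1 in each direction without vehicle 3.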

How the data were processed

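Spleen RNA of 3 vehicle and 3 MOTS-c samples was hybridised to 1-colour Agilent arrays. Per the file headers, the spot intensity values come from Feature Extraction 11.0.1.1 after background subtraction, without scaling between arrays. The authors' deposited table holds normalized log2 values for 31692 probes, a signed fold given as a score, and p-values.

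Outlier spots (97 to 145 per array) were left out, and log2 intensities were set against each array's 75th percentile (signal 678 to 925.5). A probe was tested if every array of a group showed it well above background (33734 of 56605), and the brightest stood for its gene. Groups were compared with limma 3.58.1 in R 4.3.3 (lmFit, eBayes, two-sided, Benjamini-Hochberg over 22508 genes, threshold 0.05), tested on simulated data. An exact permutation test of 3 against 3 cannot go below p = 0.1 and was not used. Replicate numbers come from titles. Nothing says that samples are separate mice, so a p-value reflects only the variation among these samples, which may be technical. Of all probes, 17628 were unnamed.

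Members and gene lists were chosen with earlier results of these data known. The text names the erythroid and interferon-linked members, those at an adjusted p under 0.1, the 6 largest differences each way at an unadjusted p under 0.05, and members by role; 1 gene of a comparison list is not reported here. Alternatives were the scaling, background correction (normexp on the median spot signal, since the files hold no mean signal), filter, probe choice, the authors' values, slide or replicate number as a block, and each array left out; gene lists were run under them only after the data were seen.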

Additional observations from a re-analysis of the deposited data

How the results depend on the processing

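The erythroid mean (-1.28) and the interferon-linked median (0.593) kept their direction under every alternative run, from -1.54 to -0.991 and from 0.267 to 0.86, and leaving out each array gave -1.54 to -1.04 and 0.267 to 0.86. The median over TRIM genes (0.193) was 0.0742 under normexp with the 75th percentile and 0.147 to 0.316 when each array was left out. The number of TRIM genes at an unadjusted p under 0.05 (19) was 7 with the slide as a block, which is the same as setting vehicle 3 alone against the MOTS-c arrays of its slide, and 12 to 23 when each array was left out. Groups did not overlap in 21 to 28 TRIM genes, or 27 to 35 with each array left out, against 26. Of all genes, 2 passed the adjusted threshold, 0 under normexp with either scaling, the filter on all 6 arrays, no filter, the authors' values or the replicate block, 1 with the slide as a block, and 0 to 682 when each array was left out. In the limma fits with a count of 0, 14 to 20 TRIM genes had an unadjusted p under 0.05.

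Same-numbered samples showed no sign of varying together (r of -0.172, 0.0334 and -0.0731 over 22508 genes). Samples with different numbers gave r of -0.147 to 0.19. The main fit therefore used no pairing by number, though with 3 arrays per group these values cannot exclude one. With the replicate block 16 TRIM genes had an unadjusted p under 0.05, and the smallest adjusted p was 0.134.

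Of 51 tested members, 38 kept their sign throughout and 13, with differences between -0.42 and 0.22, changed it at least once; the cause was not tested. Under quantile normalization Trim27, Trim28, Trim41 and Trim56 turned to 0.022, 0.202, 0.222 and 0.0402, and under the authors' values to 0.0217, 0.202, 0.222 and 0.0404. Under normexp with the 75th percentile Trim12a, Trim16, Trim28 and Trim63 turned to -0.0273, -0.0277, 0.0387 and -0.0942, and with quantile normalization Trim27, Trim28, Trim41 and Trim63 to 0.0186, 0.257, 0.216 and -0.0237. Averaging the probes of a gene, Trim24, Trim28 and Trim41 turned to -0.407, 0.02 and 0.0722. With the slide as a block Trim28, Trim41, Trim47, Trim6 and Trim7 turned to 0.0651, 0.0861, -0.00334, 0.221 and 0.614. Leaving out arrays moved Trim16 between -0.0492 and 0.419, Trim2 between -0.145 and 0.0466, Trim28 between -0.0718 and 0.0129, Trim41 between -0.0786 and 0.0598, Trim47 between -0.0663 and 0.395, Trim5 between -0.00241 and 0.204, Trim63 between -0.164 and 0.414 and Trim7 between -0.397 and 0.326. Only without vehicle 2 did any TRIM gene pass an adjusted p of 0.05: Trim10, Trim40, Trim43b and Trim59, each at an adjusted p of 0.0473. Dim signals limit Trim15, Trim38, Trim40 and Trim43b, whose size depends on the background correction. Trim46 (signal 19.4 to 53.4) and Trim34b (21.7 to 85) were dim too, and fell as low as 0.12 and 0.152 over the alternatives.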
